A study of Mus musculus with 2 samples.

Results

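The genes described here are the mouse collagen genes apart from Col4a1 and Col4a2, which encode the chains of the common basement membrane collagen. They were chosen by symbol, as every gene named Col, a number, a and a number, and 42 of the 33696 genes listed with the counts met this rule. All 42 were kept whatever their level. They comprise 11 fibrillar collagen genes, 9 genes of fibril-associated collagens (FACITs), 7 network-forming genes, 6 collagen VI genes, whose products form beaded filaments, 4 genes of collagens anchored in the cell membrane, 2 multiplexins (Col15a1 and Col18a1), the anchoring fibril gene Col7a1, and Col26a1 and Col28a1. Levels were read in 4 classes of cells set by marker UMIs (unique molecular identifiers, each standing for 1 captured RNA molecule). Collagen genes had no part in the class rules.

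Collagens are extracellular matrix proteins whose chains wind around each other into a helix, so a cell that secretes a given collagen usually makes each of the partner chains. In most tissues fibroblasts are the main source of the fibrillar collagens I, III and V, which give connective tissue its tensile strength, and of collagen VI, which links cells to the surrounding fibers. Endothelial cells lie on a basement membrane. The multiplexins, collagens XV and XVIII, belong to that layer, and a fragment cleaved from collagen XVIII is endostatin, an inhibitor of vessel growth.

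Both libraries came from mammary tumors of female C57BL/6 mice that carried transplants of the triple-negative PyMT-M or PyMT-N lines, derived from mice in which the mammary tumor virus promoter drives the polyoma middle T oncogene (MMTV-PyMT). PyMT-M is the macrophage-enriched (High-MAC) model and PyMT-N the macrophage-poor, neutrophil-enriched (Low-MAC) model, and each model is 1 transplanted line. Tumors were dissociated with collagenase I according to the sample protocol, while the methods of the study list dispase II and collagenase II. Cells were depleted of CD45+ and Ter119+ cells, selected and sorted on CD31 and CD144, pooled from 3 tumors per model and made into 1 10x Genomics 3′ library per model, so no difference between models could be tested. Intervals below are exact 95% intervals, Poisson for CPM (counts scaled to a total of 1e+06 UMIs) and ratios and Clopper-Pearson for shares of cells, and they cover counting error only. Because reads came from the 3′ end and 1 UMI stands for 1 molecule, CPM was not divided by gene length.

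The filter on barcodes left 5777 of 7821 PyMT-M and 5354 of 6974 PyMT-N barcodes, with medians of 23255 and 18977 UMIs, and 20 barcode sequences occurred in both libraries. Blood endothelial cells (at least 5 UMIs of Pecam1, Flt1, Emcn and Kdr and at most 1 of Krt8, Krt18 and Rhox5) numbered 314 in PyMT-M against 1207 in PyMT-N, with median depths of 7050 and 12844 UMIs. Lymphatic cells (at least 3 UMIs of Prox1, Mmrn1 and Reln) numbered 7 and 199. Without the limit on gene number (within 2-fold of the library median), 598 PyMT-M and 1243 PyMT-N cells met the blood endothelial rule. The lymphatic rule was then met by 20 and 207 cells. The limit thus removed a larger part of these cells in PyMT-M. Tumor-class cells (at least 3 UMIs of Krt8, Krt18 and Rhox5 and none of Pecam1 or Flt1) numbered 4864 and 3298, at 23771 and 20774.5 UMIs. Fibroblasts (at least 5 UMIs of Dcn and Lum and at most 1 of Krt8 and Rhox5) numbered 34 and 72, and 561 and 768 kept cells met no rule. The 6 blood endothelial markers outside the rule, such as Cdh5 and Tie1, lay between 183 and 1547 CPM in blood endothelial cells of both libraries. In tumor-class cells the epithelial markers Epcam (3.52 CPM in PyMT-M against 0.411 in PyMT-N) and Cdh1 (0.0746 and 0.106 CPM) were near 0 although Krt8 stood at 268 and 808 CPM, so the class is called by its rule here. The 8 bone and cartilage genes that were checked summed to 1968 and 26000 CPM in it, most of it from Spp1 (1748 and 25199.5 CPM), and the 9 fibroblast markers to 102 and 756 CPM. In PyMT-N 172 of the 199 lymphatic cells also met the blood endothelial rule, and 18 of the 72 fibroblast-class cells met another rule.

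Fibroblasts carried by far the most collagen RNA. The 42 genes together made up 40812 CPM of PyMT-M and 41808 CPM of PyMT-N fibroblasts, against 2340 and 2050 CPM in tumor-class cells, 1224 and 1246 CPM in blood endothelial cells, and 1433 and 1116 CPM in lymphatic cells. In leukocytes the sum was 259 CPM in 11 PyMT-M cells and 77.4 CPM in 56 PyMT-N cells. The fibrillar genes, whose collagens leukocytes do not make, were 47.0 and 14.5 CPM of it, from 4 and 9 UMIs. By these rules the libraries were thus close in the summed collagen level of each of the 4 classes. In lymphatic cells this says little, since the PyMT-M sum rested on 75 UMIs of 7 cells (interval 1127 to 1797 CPM). Other genes led it than in PyMT-N. The differences described below lie largely in which chains made up the sum. In fibroblasts the closeness depended on the rule. With at least 3 UMIs each of Dcn and Lum (added after seeing the data), Col1a1 was at 6002 CPM in PyMT-M against 11905 CPM in PyMT-N. Col1a2 was then at 10198 and 14838 CPM and Col3a1 at 15316 and 16526 CPM, while Col14a1 was at 709 and 183 CPM.

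Of the 33 members with at least 50 UMIs over both libraries in 1 class or more (called ranked), 19 had their highest CPM in fibroblasts in both libraries. This is 57.6% of the ranked members. Of the 16145 genes with at least 50 UMIs summed over the 4 classes and both libraries, 9.72% had the same pattern. They were Col1a1, Col1a2, Col3a1, Col5a1, Col5a2, Col5a3, Col11a1, Col24a1 and Col27a1 of the fibrillar family, Col12a1, Col14a1 and Col16a1 of the FACITs, the network-forming Col4a4, Col8a1 and Col8a2, the collagen VI genes Col6a1, Col6a2 and Col6a3, and Col7a1. For Col4a4 the fibroblast level rested on 2 UMIs in PyMT-M against 4 in PyMT-N, and for Col8a2 on 1 against 72. Col13a1 and Col18a1 were highest in blood endothelial cells in both libraries (background 12.4% of genes), and Col2a1, Col17a1 and Col4a6 in tumor-class cells (background 10.4%). The other classes were too shallow to register levels as low as those of Col2a1 and, apart from PyMT-N blood endothelial cells, Col17a1. In PyMT-N Col17a1 was at 0.252 CPM in tumor-class cells and 0.233 CPM (4 UMIs) in blood endothelial cells, 1.08-fold apart (0.36 to 4.36). Col4a6 had 1 tumor-class UMI in PyMT-M and none in its other classes, so its place rests on PyMT-N. No member was highest in lymphatic cells in both libraries (background 11.3%). For Col9a1, Col9a3, Col20a1, Col25a1, Col15a1, Col28a1, Col6a4, Col23a1 and Col4a5 the highest class differed between libraries, mostly on few UMIs or near ties. The highest class rested on 1 UMI for Col20a1, Col25a1, Col6a4 and Col4a5 in PyMT-M. In PyMT-N it rested on 2 UMIs for Col9a3 and 4 for Col9a1. Col15a1 was 1.08-fold (0.88 to 1.32) higher in fibroblasts than in blood endothelial cells in PyMT-M, and 1.06-fold (0.96 to 1.18) lower in PyMT-N. Col23a1 in PyMT-M was at 19.2 CPM in fibroblasts and 19.1 CPM, from 1 UMI, in lymphatic cells.

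**Figure D1:**
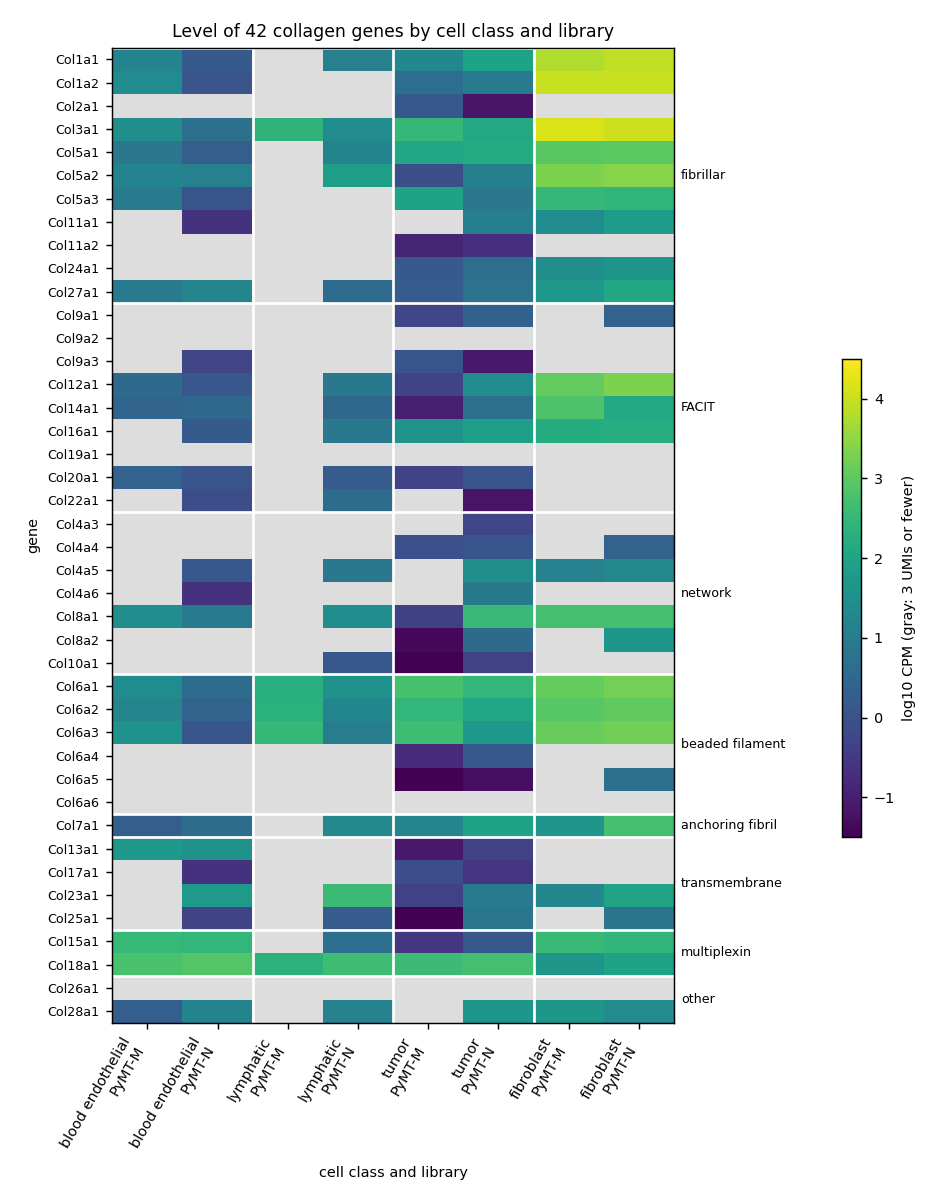
Color gives log10 CPM of each of the 42 collagen genes (rows, grouped by family) in the 4 cell classes of each library (columns), and gray marks 3 UMIs or fewer. The fibroblast columns are brightest for Col1a1, Col1a2 and Col3a1, Col18a1 and Col15a1 stand out in blood endothelial cells, and Col8a1 is bright in PyMT-N but not in PyMT-M tumor-class cells.

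The other 9 members did not reach 50 UMIs in any class and are not compared. Summed over the 4 classes and both libraries they held 46 UMIs (Col4a3), 45 UMIs (Col10a1), 40 UMIs (Col11a2), 32 UMIs (Col22a1), 17 UMIs (Col6a5), 9 UMIs (Col26a1), 7 UMIs (Col6a6), 3 UMIs (Col9a2) and 1 UMI (Col19a1). Cells that met more than 1 rule count in each class here. Of the 14 Col22a1 UMIs in PyMT-N blood endothelial cells, 12 lay in those that also met the lymphatic rule.

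In blood endothelial cells the multiplexins made up 76.5% of the collagen UMIs counted here in PyMT-M and 85.4% in PyMT-N. Col18a1, which encodes the endostatin-bearing chain, stood at 600 CPM (interval 570 to 632) in PyMT-M against 770 CPM (757 to 783) in PyMT-N, for a log2 ratio of -0.36 (-0.44 to -0.28). Col15a1, the other multiplexin, stood at 336 CPM (313 to 359) and 294 CPM (286 to 302), for a log2 ratio of 0.19 (0.08 to 0.30) that came to -0.01 in cells that met no other class rule (cells of 1 class only). Both lay well within 2-fold of equal levels. Col13a1, which encodes a transmembrane collagen found at cell junctions, was at 49.0 CPM (40.6 to 58.7) in PyMT-M against 35.3 CPM (32.5 to 38.2) in PyMT-N. With cells of 1 class only it was at 49.4 and 40.8 CPM, for a log2 ratio of 0.28 (-0.02 to 0.56) whose interval includes equal levels. It was at 0.0829 and 0.450 CPM in tumor-class cells and had 0 and 3 UMIs in fibroblasts. For scale, Col4a1 and Col4a2 together reached 3897 and 5336 CPM in the same cells.

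Col18a1 was detected in 92.0% of PyMT-M and 94.0% of PyMT-N blood endothelial cells, Col15a1 in 72.6% and 70.5%, and Col13a1 in 21.0% and 20.8%. After each cell was thinned to 5000 UMIs these shares were 89.0% and 87.8% for Col18a1, 66.0% and 58.4% for Col15a1, and 15.8% and 12.5% for Col13a1. The class includes cells that also met the lymphatic rule, 3 in PyMT-M and 172 in PyMT-N. Col15a1 was detected in 2.33% of those 172 cells and Col13a1 in none. Without such cells and without thinning, Col15a1 was detected in 73.3% of PyMT-M and 81.8% of PyMT-N cells. Col13a1 was then detected in 21.2% and 24.3%. Thinned shares are not given without these cells. The background of free RNA was read in leukocytes without the limit on gene number, 369 in PyMT-M against 176 in PyMT-N with medians of 1542 and 4245 UMIs. There Col18a1 was seen in 4.61% and 2.84% of cells, Col15a1 in 1.63% and 1.70%, and Col13a1 in none (intervals up to 0.995% and 2.07%). The 3 genes were therefore measured in blood endothelial cells far above that background, although the leukocytes were shallower. Col14a1 was at 19.2 CPM in PyMT-N leukocytes (20 UMIs in 12 of 176 cells), against 3.15 CPM in PyMT-N blood endothelial and 4.69 CPM in tumor-class cells. The source of these leukocyte UMIs was not tested, so leukocyte values need not all be free RNA.

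The upstream sequences of the endothelial members Col13a1 and Col15a1 are shown because these genes, after Col18a1, held the most collagen UMIs of the class in PyMT-M. In PyMT-N Col23a1 ranked above Col13a1. Each is the 250 bases before the annotated start in RefSeq (build GRCm38.p6), written 5′ to 3′ along the gene's strand. Capitals mark matches on either strand to the TATA box letters TATAAA, the CCAAT box, the GC box letters GGGCGG, the AP-1 letters TGACTCA or the ETS core letters CAGGAA. Col13a1 has 1 TATAAA match far from its start, and Col15a1 has no match to any of the 5 motifs in this window.
Col13a1, chr10:61979109-61979358, minus strand: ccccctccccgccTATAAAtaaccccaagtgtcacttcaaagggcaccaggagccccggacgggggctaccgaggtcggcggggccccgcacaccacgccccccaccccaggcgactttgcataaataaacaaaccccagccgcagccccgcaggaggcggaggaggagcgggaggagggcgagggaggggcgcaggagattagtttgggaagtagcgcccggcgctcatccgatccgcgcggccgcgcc
Col15a1, chr4:47207762-47208011, plus strand: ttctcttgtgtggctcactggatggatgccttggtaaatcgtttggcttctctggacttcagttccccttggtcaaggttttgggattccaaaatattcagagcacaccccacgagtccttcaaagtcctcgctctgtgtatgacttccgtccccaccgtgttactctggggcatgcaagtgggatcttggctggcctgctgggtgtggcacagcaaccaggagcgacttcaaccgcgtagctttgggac

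Among the 17 ranked members in blood endothelial cells, 8 were at least 2-fold higher in PyMT-M (47.1%, against 4.39% of all ranked genes) and 3 at least 2-fold lower (17.6%, against 9.89%). The median log2 ratio was 0.47 over the members and -0.07 over all ranked genes. The 8 were the fibrillar genes Col1a1, Col1a2, Col3a1 and Col5a1, the collagen VI genes Col6a1, Col6a2 and Col6a3, and Col8a1, which encodes a chain of the short network collagen of vessel walls. Col1a2, the second chain gene of collagen I, was at 26.2 CPM in PyMT-M against 1.22 CPM in PyMT-N, for a log2 ratio of 4.42 (3.69 to 5.20). Its partner Col1a1 was at 15.8 and 1.57 CPM, for a log2 ratio of 3.33. Col3a1, the chain of the fibrillar collagen of elastic tissues, was at 30.3 and 5.19 CPM, for a log2 ratio of 2.55, and Col5a1, a chain that sets fibril width, at 7.47 and 2.10 CPM, for a log2 ratio of 1.83. Col6a1, Col6a2 and Col6a3 were at 26.6, 17.0 and 35.7 CPM in PyMT-M and at 4.26, 2.51 and 1.28 CPM in PyMT-N. Col8a1 was at 27.8 and 9.74 CPM, for a log2 ratio of 1.51.

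Most of this higher fibrillar signal sat in 4 of the 314 PyMT-M cells (1.27%). These cells had 23 to 78 UMIs of Rgs5, a marker of mural cells (pericytes and smooth muscle cells), where no other blood endothelial cell of either library had more than 2, and 155 to 248 UMIs of the 8 mural markers in all. They had no UMI of Dcn or Lum and 5 to 13 UMIs of the blood endothelial rule genes. They held 157 of the 174 UMIs of Col1a1, Col1a2 and Col3a1 (90.2%) and 108 of the 191 collagen VI UMIs (56.5%) of the class in PyMT-M. No PyMT-N blood endothelial cell reached 5 Rgs5 UMIs.

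Without cells with 5 or more Rgs5 UMIs, 3 of 14 ranked members, instead of 8 of 17, were at least 2-fold higher in PyMT-M. This step was added after seeing the data, and the share over all ranked genes is not given for it. Col3a1 then stood at 5.92 CPM in PyMT-M against 5.19 in PyMT-N, for a log2 ratio of 0.19 (-0.74 to 1.01), and Col8a1 at 13.9 and 9.74 CPM, for a log2 ratio of 0.52 (-0.07 to 1.06). Col1a1 and Col1a2 were left with 1 and 2 UMIs in PyMT-M, and with Col5a1 they fell under 50 UMIs and were no longer ranked. Col5a2, a partner chain of Col5a1, turned from 15.8 against 13.1 CPM in all cells to 1.69 against 13.1 CPM, for a log2 ratio of -2.96 (-4.84 to -1.58). With cells of 1 class only it was instead at 15.9 against 3.10 CPM, for a log2 ratio of 2.36 (1.70 to 3.01), so its direction turned on which cells were counted. Col6a1, Col6a2 and Col6a3 kept log2 ratios of 1.80, 1.68 and 3.26. Their remaining PyMT-M levels of 14.8, 8.03 and 12.3 CPM were below the 19.7, 18.4 and 15.8 CPM in PyMT-M leukocytes, which rest on 15, 14 and 12 UMIs. These leukocytes were shallower, with a median of 1542 UMIs per cell against 7003 in the blood endothelial cells. Neither endothelial expression nor its absence is read from these levels. The leukocyte levels in PyMT-N were also lower, at 5.77, 3.85 and 3.85 CPM. The source of these UMIs was not tested.

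**Figure D2:**
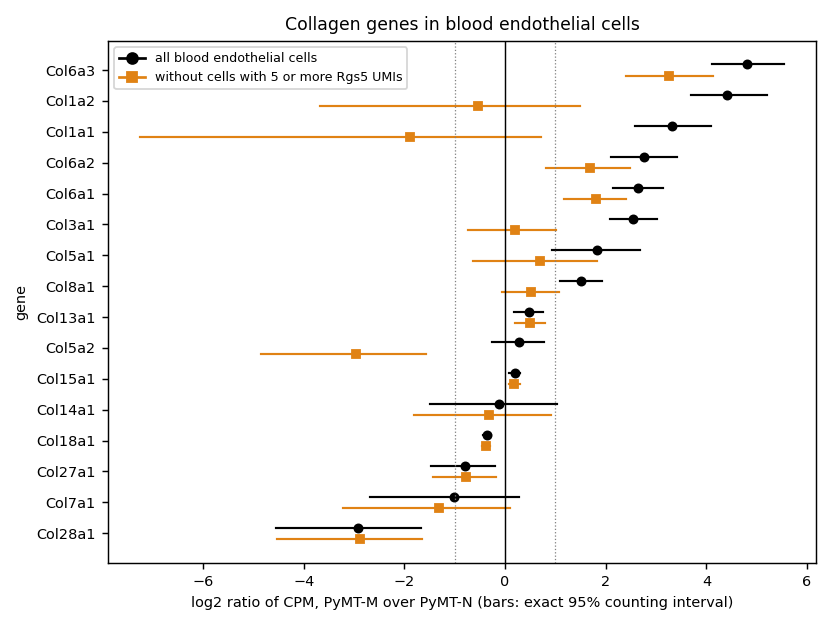
Points give the log2 ratio of CPM (PyMT-M over PyMT-N) of 16 ranked collagen genes in blood endothelial cells, bars the exact 95% counting interval, and dotted lines a 2-fold difference, for all cells (black) and without cells with 5 or more Rgs5 UMIs (orange). Col3a1 moves from 2.55 to 0.19 and Col1a2 from 4.42 to -0.53 without these cells, while Col18a1, Col15a1 and Col13a1 hardly move.

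The 3 members lower in PyMT-M were Col23a1, Col28a1 and Col7a1. Col23a1, which encodes a transmembrane collagen, had no UMI in PyMT-M against 950 UMIs (55.4 CPM) in PyMT-N, at least 44.5-fold lower in PyMT-M when a floor of 3 UMIs over the library is used. Col28a1, which encodes a collagen with von Willebrand factor A domains, was at 2.08 CPM in PyMT-M (5 UMIs) and 15.7 CPM in PyMT-N, for a log2 ratio of -2.92 (-4.55 to -1.68). Col7a1, the gene of anchoring fibrils, was at 2.08 and 4.20 CPM, for a log2 ratio of -1.02 whose interval of -2.68 to 0.27 includes equal levels. Col27a1, a fibrillar collagen gene with cartilage as its best known site, was at 9.97 and 17.4 CPM, for a log2 ratio of -0.80 (-1.47 to -0.20). This lies within 2-fold, but the ratio ran from -1.43 to -0.73 under the alternatives, so it was not always within 2-fold. Col14a1, a FACIT gene, was at 2.91 and 3.15 CPM. With cells of 1 class only, Col28a1 alone of the 3 lower members stayed past 2-fold, at a log2 ratio of -3.12 (-4.75 to -1.88). Col7a1 was then at 2.09 CPM in PyMT-M and 1.89 CPM in PyMT-N, for a log2 ratio of 0.15 (-1.58 to 1.54). Col23a1 had no UMI in PyMT-M against 7 UMIs (0.472 CPM) in PyMT-N, without a ratio.

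The PyMT-N cells that met the blood endothelial rule were made of parts with different collagens. In the PyMT-N lymphatic class, Flt1 and Emcn were at 19.6 and 49.5 CPM, against 916 and 890 CPM in blood endothelial cells. Pecam1 and Kdr were at 468 and 404 CPM there, and the 7 lymphatic markers summed to 15343 CPM. The split below therefore sets cells with lymphatic markers against the others and is not read as a difference within blood endothelium. The 172 cells that also met the lymphatic rule held 99.3% of the Col23a1 UMIs, at 405 CPM (379 to 431) against 0.472 CPM (0.190 to 0.973) in the other 1035 cells. Col23a1 was detected in 78.5% of the former and 0.676% of the latter. Col5a2 was at 76.8 CPM in them and 3.10 CPM in the others, a 24.8-fold difference, and Col7a1 at 18.9 and 1.89 CPM. The opposite held for Col15a1, at 6.01 CPM in the cells that also met the lymphatic rule and 339 CPM in the others. Col18a1 was lower too, at 451 and 820 CPM, and Col27a1 was at 3.43 and 19.6 CPM. Col13a1 and Col28a1 had no UMI in these 172 cells and 40.8 and 18.1 CPM in the others, at least 31.7-fold and 14.1-fold lower. In PyMT-M 3 blood endothelial cells met the lymphatic rule and had no Col23a1, Col5a2, Col15a1 or Col13a1 UMI, too few to compare.

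**Figure D3:**
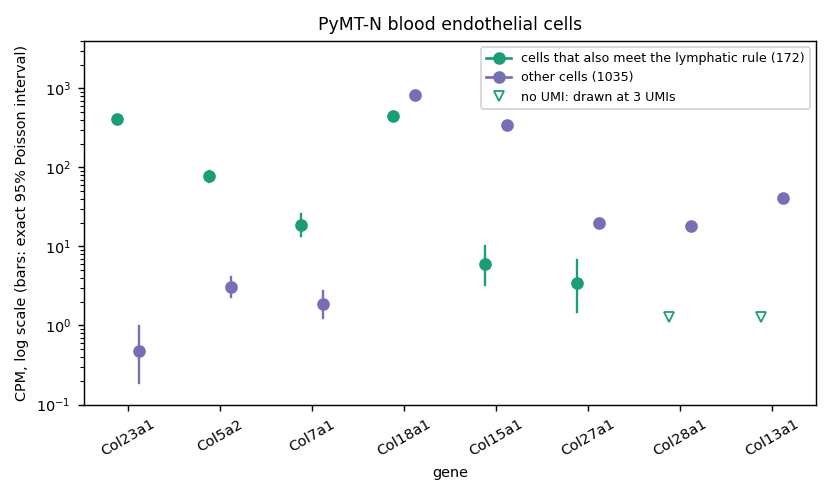
Points give CPM on a log scale of 8 collagen genes in PyMT-N cells that met the blood endothelial rule, with exact 95% Poisson intervals. Green marks the 172 cells that also met the lymphatic rule and purple the other 1035. Open triangles mark genes without a UMI, drawn at 3 UMIs. Col23a1, Col5a2 and Col7a1 lie higher in the green cells and the other 5 genes higher in the purple cells.

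Within blood endothelial cells, members were set against vessel state in cells that met no other class rule and, in PyMT-M, had fewer than 5 Rgs5 UMIs. States are ranges of cells cut by marker UMIs, and a cell can be in several. The cuts were the same in both libraries although blood endothelial cells had medians of 7050 UMIs in PyMT-M and 12844 UMIs in PyMT-N. A state therefore need not hold the same kind of cells in both libraries. Col18a1 was higher in cells with at least 3 UMIs of the arterial genes Gja4, Gja5, Sema3g and Bmx in both libraries, at 1336 CPM in 16 PyMT-M cells against 561 CPM in the other 291, and at 1407 CPM in 87 PyMT-N cells against 759 CPM in the other 948. The log2 differences were 1.25 (0.99 to 1.51) and 0.89 (0.82 to 0.96). It was lower in cycling cells (at least 5 UMIs of Mki67, Top2a, Cdk1 and Birc5), by log2 differences of -0.31 and -0.52. Col8a1 was also higher in arterial cells, at 115 CPM against 8.03 CPM in PyMT-M, from 12 and 18 UMIs, and at 32.1 against 8.64 CPM in PyMT-N. The log2 differences were 3.85 (2.66 to 4.98) and 1.89 (1.36 to 2.40).

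Col27a1 was higher in cells with at least 5 UMIs of the tip cell genes Apln, Esm1 and Angpt2, with 23 UMIs in 143 PyMT-M tip cells (19.3 CPM) and 1 UMI in the other 164, and 29.6 CPM in 346 PyMT-N tip cells against 13.3 CPM in the other 689. The log2 difference in PyMT-N was 1.15 (0.80 to 1.50). Col15a1 was higher in venous cells (at least 5 UMIs of Ackr1, Selp, Sele and Lrg1), at 444 against 318 CPM in PyMT-M and 380 against 316 CPM in PyMT-N. It was also higher in capillary cells (at least 10 UMIs of Gpihbp1, Cd36, Fabp4 and Car4), at 367 against 216 CPM and at 347 against 314 CPM. All of these Col15a1 differences were under 2-fold, and their intervals lay above 0.

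Col13a1 followed different states in the libraries. In PyMT-N venous cells it stood at 60.2 CPM against 29.6 CPM in the others, a log2 difference of 1.03 (0.79 to 1.26), while in PyMT-M the venous value was 0.01 (-0.82 to 0.76). In PyMT-M capillary cells it stood at 56.8 against 24.9 CPM, a log2 difference of 1.19 (0.32 to 2.19), and in PyMT-N the capillary value was -0.01 (-0.28 to 0.28). The difference between the libraries was not tested. Col28a1 was higher in PyMT-N capillary cells, at 20.4 against 10.7 CPM, and had 5 UMIs in PyMT-M in all.

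In PyMT-N lymphatic cells the collagens were led by Col18a1 and Col23a1, while in PyMT-M Col6a3 and Col3a1 held the most of 75 UMIs. The comparison between models was limited by 7 PyMT-M cells with 52329 UMIs in all. In PyMT-N Col18a1 stood at 429 CPM (405 to 454), Col23a1 at 381 CPM (358 to 404), Col5a2 at 68.1 CPM (58.8 to 78.4) and Col7a1 at 21.0 CPM (16.0 to 27.1). Col23a1 was detected in 75.4% of the 199 cells and, after thinning to 5000 UMIs, in 62.1% of 195, against 1.70% of PyMT-N leukocytes. The 7 PyMT-M cells held 12 Col18a1 UMIs, 1 Col23a1 UMI and no Col5a2 or Col7a1 UMI. The log2 ratio of Col23a1 was -4.32 (-9.62 to -1.83).

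Of the 8 ranked members in lymphatic cells, 4 were at least 2-fold higher in PyMT-M (50%, against 12.1% of all ranked genes), 1 lower (12.5%, against 11%), 2 within 2-fold and 1, Col7a1, without a ratio. The higher ones were Col3a1 (248 and 26.7 CPM), Col6a1 (191 and 38.8 CPM), Col6a2 (210 and 17.8 CPM) and Col8a1 (57.3 and 27.4 CPM, 3 UMIs in PyMT-M). In PyMT-M 1 cell with more than 1 UMI of Krt8, Krt18 and Rhox5 held 9 of the 10 Col6a1 and 12 of the 13 Col3a1 UMIs. In PyMT-N 13 such cells held 102 of 109 Col6a1, 64 of 75 Col3a1 and 71 of 77 Col8a1 UMIs. In cells with no UMI of other-class markers Col3a1 and Col6a1 had log2 ratios of -0.10 and -0.57, the reverse of their direction above. Col8a1 had no PyMT-M UMI in cells of 1 class only, for a log2 ratio of at most -0.71. On simulated counts 16.9% of unchanged genes passed 2-fold in this class by counting error alone.

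Tumor-class cells showed the widest differences between the models. Of 32 ranked members 7 were at least 2-fold higher in PyMT-M (21.9%, against 21% of all ranked genes) and 20 at least 2-fold lower (62.5%, against 25.6%). The share of higher members was thus near the background and that of lower members above it. The median log2 ratio was -1.81 over the members and -0.09 over all 14995 ranked genes. A total that left aside hemoglobin, ribosomal-protein and mitochondrial genes moved the median over all genes up by 0.20, and no member changed direction under it. Col4a1 and Col4a2 were at 259 and 93.0 CPM in PyMT-M and at 263 and 116 CPM in PyMT-N.

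Collagen VI led in PyMT-M and made up 55.7% of the collagen UMIs counted here, against 22.2% in PyMT-N. Col6a1, the chain gene with the most UMIs of the class in PyMT-M, was at 575 CPM (571 to 580) there and 290 CPM (286 to 294) in PyMT-N, for a log2 ratio of 0.99 (0.97 to 1.01) just under 2-fold. Col6a2, its neighbor on the same chromosome, was at 298 and 113 CPM, for a log2 ratio of 1.40 (1.37 to 1.44). Col6a3, the longest of these chains, was at 429 CPM (426 to 433) and 50.4 CPM (48.8 to 52.1), for a log2 ratio of 3.09 (3.04 to 3.14). The gap thus widened from Col6a1 to Col6a3. In single cells the median was 12 Col6a1 UMIs and 9 Col6a3 UMIs in PyMT-M, whereas PyMT-N cells had medians of 5 and 0. Col6a3 was detected in 95.7% of PyMT-M and 35.9% of PyMT-N cells, and in 77.2% and 17.4% after thinning to 5000 UMIs, against 2.44% and 2.27% of leukocytes. The other collagen VI gene ranked here, Col6a4, was on the PyMT-N side at 0.174 and 1.47 CPM.

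Of the fibrillar genes Col5a3 differed most in favor of PyMT-M among those above 10 CPM there. This less common chain gene of collagen V was at 96.5 CPM (94.7 to 98.2) and 7.59 CPM (6.98 to 8.24), for a log2 ratio of 3.67 (3.55 to 3.79). Col3a1 was at 308 CPM (305 to 311) and 129 CPM (126 to 131), for a log2 ratio of 1.26. It was found in 95.9% of PyMT-M cells, with a median of 6 UMIs and a highest count of 166, and in 36.5% of PyMT-N cells, with a median of 0 and a highest count of 210, so its PyMT-N level came from fewer cells. After thinning the shares were 71.6% and 22.2%, against 1.90% and 1.70% of leukocytes. Col2a1, the cartilage collagen gene, was at 1.38 and 0.0662 CPM (167 and 5 UMIs), Col9a3, a FACIT gene of cartilage, at 1.14 and 0.0795 CPM (137 and 6 UMIs), and Col17a1, the gene of a hemidesmosome collagen, at 0.813 and 0.252 CPM (98 and 19 UMIs). These 3 were higher in PyMT-M at very low levels.

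The network-forming genes lay almost wholly on the PyMT-N side, where they made up 18.9% of the collagen UMIs counted here against 0.0617% in PyMT-M. Col8a1 was at 0.423 CPM (0.315 to 0.556) in PyMT-M against 343 CPM (339 to 347) in PyMT-N, for a log2 ratio of -9.66 (-10.09 to -9.27). It was detected in 0.391% of PyMT-M and 86.1% of PyMT-N cells, or 0.123% and 63.7% after thinning, against 0% and 0.568% of leukocytes. Its partner Col8a2 was at 0.0415 and 3.66 CPM, for a log2 ratio of -6.46. Col4a5, a chain gene of specialized basement membranes, was at 0.0249 CPM (3 UMIs) and 29.9 CPM, and its partner Col4a6 at 0.00829 CPM (1 UMI) and 8.21 CPM. Their log2 ratios were -10.23 (-12.51 to -8.68) and -9.95 (-15.26 to -7.47). Col4a4, a chain gene of the kidney basement membrane, was at 0.904 and 1.19 CPM and within 2-fold.

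The lower members in PyMT-M also included genes of every other family. Col28a1 was at 0.0166 CPM (2 UMIs) and 45.2 CPM (43.7 to 46.7), the lowest ratio of the class at a log2 value of -11.41 (-14.46 to -9.56), and 31.6% of PyMT-N cells had it. Col7a1 was at 16.8 CPM (16.1 to 17.5) and 95.9 CPM (93.7 to 98.1), for a log2 ratio of -2.51. Col1a1, the main chain gene of collagen I, was at 20.5 and 94.7 CPM, for a log2 ratio of -2.21, while Col1a2 was at 4.77 and 9.75 CPM, for a log2 ratio of -1.03. The Col1a2 value lay in few cells, with 181 of 575 UMIs in 1 PyMT-M cell and 325 of 736 in 1 PyMT-N cell, and it ran from -1.67 to -0.56 under the alternatives, so it was not always past 2-fold. Col5a2 was at 0.879 and 12.1 CPM, for a log2 ratio of -3.79, and the cartilage fibril gene Col11a1 at 0.0249 CPM (3 UMIs) and 12.1 CPM. Of the transmembrane collagens Col25a1, known from neurons, was at 0.0332 and 7.24 CPM, and Col23a1 at 0.473 and 9.55 CPM.

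Of the FACITs, Col12a1, whose product coats collagen I fibrils, was at 0.539 and 24.6 CPM, for a log2 ratio of -5.51, and Col14a1, a close relative, at 0.0995 and 4.69 CPM, for a log2 ratio of -5.56. Col9a1 and Col20a1 were also lower in PyMT-M, at log2 ratios of -1.92 and -1.22, as were the fibrillar genes Col27a1 (-1.70) and Col24a1 (-1.65) and the multiplexin Col15a1 (-2.37). The PyMT-N level was 1.22 to 5.68 CPM for these 5 genes. Col18a1, at 415 CPM (411 to 418) and 511 CPM (506 to 516), Col5a1, at 124 and 153 CPM, and the FACIT gene Col16a1, at 40.6 and 75.7 CPM, were within 2-fold, with log2 ratios of -0.30, -0.30 and -0.90. Col18a1 was detected in 99.1% and 95.3% of tumor-class cells, and in 82.2% and 80.0% after thinning.

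**Figure D4:**
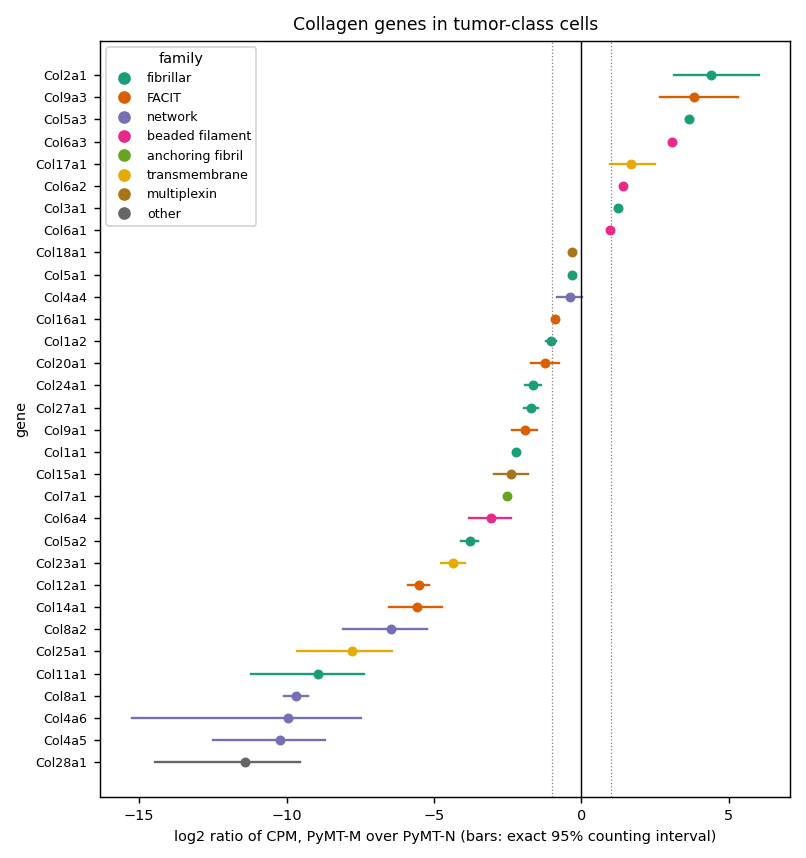
Points give the log2 ratio of CPM (PyMT-M over PyMT-N) of the 32 ranked collagen genes in tumor-class cells, colored by family, with exact 95% counting intervals, and dotted lines mark a 2-fold difference. The 20 lower genes span log2 values of -1.03 to -11.41 and the 7 higher genes 1.26 to 4.39, with Col6a1 just inside the line at 0.99.

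Upstream sequences are shown for 6 members that set the models apart in tumor-class cells, Col6a1, Col6a3 and Col5a3 (toward PyMT-M) and Col8a1, Col4a5 and Col4a6 (toward PyMT-N), as the 250 bases before the start in RefSeq (build GRCm38.p6). Capitals mark matches to the same 5 motifs on either strand, and no base lies in 2 matches. Col4a5 and Col4a6 are neighbors on opposite strands whose starts lie 1343 bases apart.
Col6a1, chr10:76726045-76726294, minus strand: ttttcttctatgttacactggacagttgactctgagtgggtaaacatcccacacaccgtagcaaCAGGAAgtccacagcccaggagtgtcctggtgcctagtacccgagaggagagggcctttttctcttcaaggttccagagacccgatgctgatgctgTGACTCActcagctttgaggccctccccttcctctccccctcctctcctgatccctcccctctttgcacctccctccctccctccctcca
Col6a3, chr1:90843972-90844221, minus strand: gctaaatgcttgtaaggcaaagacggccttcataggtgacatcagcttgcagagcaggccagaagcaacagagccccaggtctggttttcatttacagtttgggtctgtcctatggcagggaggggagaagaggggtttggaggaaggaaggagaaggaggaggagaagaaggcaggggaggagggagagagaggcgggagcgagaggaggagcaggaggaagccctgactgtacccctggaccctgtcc
Col5a3, chr9:20815068-20815317, minus strand: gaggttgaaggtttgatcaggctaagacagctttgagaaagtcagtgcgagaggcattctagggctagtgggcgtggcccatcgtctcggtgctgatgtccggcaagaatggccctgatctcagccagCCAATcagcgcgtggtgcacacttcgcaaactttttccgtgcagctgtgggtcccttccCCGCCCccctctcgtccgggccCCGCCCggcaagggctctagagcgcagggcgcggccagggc
Col8a1, chr16:57754738-57754987, minus strand: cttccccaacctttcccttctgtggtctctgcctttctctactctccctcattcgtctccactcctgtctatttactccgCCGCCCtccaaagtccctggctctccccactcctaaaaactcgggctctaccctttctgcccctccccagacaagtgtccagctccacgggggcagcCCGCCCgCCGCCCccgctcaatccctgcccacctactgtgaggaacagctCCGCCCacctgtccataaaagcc
Col4a5, chrX:141475169-141475418, plus strand: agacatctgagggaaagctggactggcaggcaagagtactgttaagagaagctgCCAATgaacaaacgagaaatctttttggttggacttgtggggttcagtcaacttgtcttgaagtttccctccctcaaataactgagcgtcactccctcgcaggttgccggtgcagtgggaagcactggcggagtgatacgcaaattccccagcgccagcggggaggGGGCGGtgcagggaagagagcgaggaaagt
Col4a6, chrX:141474077-141474326, minus strand: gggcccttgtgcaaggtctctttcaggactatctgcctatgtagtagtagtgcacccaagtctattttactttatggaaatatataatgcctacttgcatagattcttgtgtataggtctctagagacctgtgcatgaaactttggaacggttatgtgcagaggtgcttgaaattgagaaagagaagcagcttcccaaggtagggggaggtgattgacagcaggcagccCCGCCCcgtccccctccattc

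A RefSeq window was at hand for 33 of the 42 members (36 windows, since some genes have several starts), and none was used for Col12a1, Col14a1, Col1a1, Col22a1, Col26a1, Col2a1, Col4a3, Col5a2 and Col9a3. The GC box letters GGGCGG occurred in 21 of the 36 member windows (58.3%) and in 32.7% of all 32851 windows. TATAAA occurred in 5 member windows (13.9%) and 12.4% of all windows, CCAAT in 11 (30.6%) and 33.8%, the AP-1 letters TGACTCA in 1, that of Col6a1, (2.78%) and 4.46%, and the ETS core letters CAGGAA in 6 (16.7%) and 25.7%. In the printed stretches Col8a1 has 4 GGGCGG matches, Col5a3 has 2, and Col4a5 and Col4a6 have 1 each, while Col6a1 and Col6a3 have none. A match describes the letters of a window and is not a binding site.

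Neighboring members did not always differ in the same direction. Of the 7 pairs of members that lie next to each other among the protein-coding genes of RefSeq, Col6a1 and Col6a2 were both higher in PyMT-M tumor-class cells, Col4a5 and Col4a6 were both lower, and Col3a1 was higher (a log2 ratio of 1.26) while its neighbor Col5a2 was lower (-3.79). The other 4 pairs were Col9a1 with Col19a1, Col4a3 with Col4a4, Col6a5 with Col6a6 and Col6a4 with Col6a5, each with a member under 50 UMIs.

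Fibroblasts of the models shared their leading collagens. Col3a1 made up 36.4% of the collagen UMIs counted here in PyMT-M and 26.8% in PyMT-N, Col1a2 24.6% and 23.8%, and Col1a1 15.0% and 19.7%. Col3a1 was at 14855 CPM in PyMT-M against 11191 CPM in PyMT-N, for a log2 ratio of 0.41 (0.36 to 0.46). Col1a2 was at 10030.5 and 9939.7 CPM, for a log2 ratio of 0.01 (-0.04 to 0.07), and Col1a1 at 6127 and 8217 CPM, for a log2 ratio of -0.42. Col5a2 (2056 and 2516 CPM), Col6a1 (1190.1 and 1746 CPM), Col6a3 (1257 and 1651 CPM), Col6a2 (892 and 1111 CPM) and Col12a1 (1139 and 2034 CPM) were likewise within 2-fold.

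Of the 22 ranked members in fibroblasts 1 was at least 2-fold higher in PyMT-M (4.55%, against 5.35% of all ranked genes) and 5 at least 2-fold lower (22.7%, against 13.5%). The higher one was Col14a1, at 674 CPM (586 to 771) and 131 CPM (113 to 150), for a log2 ratio of 2.37 (2.08 to 2.65). Its tumor-class ratio had the opposite sign. The lower ones were Col7a1, at 41.7 CPM (22.2 to 71.3) and 524 CPM (488 to 562), for a log2 ratio of -3.65 (-4.57 to -2.87), Col23a1, at 19.2 and 101 CPM (6 UMIs in PyMT-M), Col8a2, at 3.21 and 47.2 CPM (1 UMI in PyMT-M), Col11a1, at 25.7 and 61.7 CPM, and Col27a1, at 51.3 and 121 CPM. Col7a1, Col8a2, Col11a1, Col23a1 and Col27a1 were thus lower in PyMT-M in tumor-class cells and fibroblasts alike. Col5a1, Col5a3, Col8a1, Col15a1, Col16a1, Col18a1, Col24a1 and Col28a1 lay within 2-fold, between -0.93 and 0.99 on the log2 scale.

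The PyMT-N fibroblast class was mixed. The UMIs of Col1a1, Col1a2 and Col3a1 per cell ran from 35 through a median of 270.5 to 646 in PyMT-M and from 0 through 516.5 to 2873 in PyMT-N. The 35 PyMT-N cells with at least 3 UMIs each of Dcn and Lum had 290 to 2873 and held 90.9% of these UMIs, and the other 37 cells had a median of 7. With that stricter rule, added after seeing the data, 27 PyMT-M cells remained. Col14a1 then had a log2 ratio of 1.95 and Col7a1 of -4.31, and Col12a1 moved from -0.84 to -1.52, Col1a1 from -0.42 to -0.99, Col1a2 from 0.01 to -0.54 and Col3a1 from 0.41 to -0.11. With cells of 1 class only Col3a1 was at 0.17 (0.12 to 0.22). Under the stricter rule Col15a1 also turned, from 0.39 to -0.48 (-0.85 to -0.13), as did Col18a1, from -0.93 to 0.90 (-0.29 to 2.01). Col28a1, with 15 and 37 UMIs in all fibroblasts, was left with 13 in PyMT-M and none in PyMT-N, for a log2 ratio of at least 4.02, so its PyMT-N UMIs all lay in the other 37 cells.

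Tumor-class cells and fibroblasts held collagen chains in different proportions. Col3a1 and Col1a1 are chains of different collagens, III and I, and are not partners, whereas the other collagen pairs below are. The ratio of Col3a1 to Col1a1 UMIs was 15.1 (14.5 to 15.7) in PyMT-M tumor-class cells and 2.42 (2.30 to 2.56) in PyMT-M fibroblasts, while in PyMT-N it was 1.36 in both classes. Col1a2 to Col1a1 was 0.233 (0.212 to 0.255) and 0.103 (0.0952 to 0.111) in tumor-class cells of PyMT-M and PyMT-N, against 1.64 and 1.21 in fibroblasts. Col5a2 to Col5a1 was 0.00711 and 0.0795 in tumor-class cells against 2.27 and 2.59 in fibroblasts. Col6a3 to Col6a1 was 0.746 and 0.174 against 1.06 and 0.946, and Col6a2 to Col6a1 0.518 and 0.390 against 0.749 and 0.637. Dcn, the fibroblast proteoglycan gene, to Col1a1 was 0.0478 and 0.798 against 0.672 and 0.137. Dcn is part of the fibroblast rule, so its fibroblast ratio is set in part by how the cells were chosen. Except for Col3a1 to Col1a1 in PyMT-N, the tumor-class ratios of collagen chains differed from the fibroblast ratios beyond their counting intervals. The part of free RNA in the tumor-class values was not tested.

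**Figure D5:**
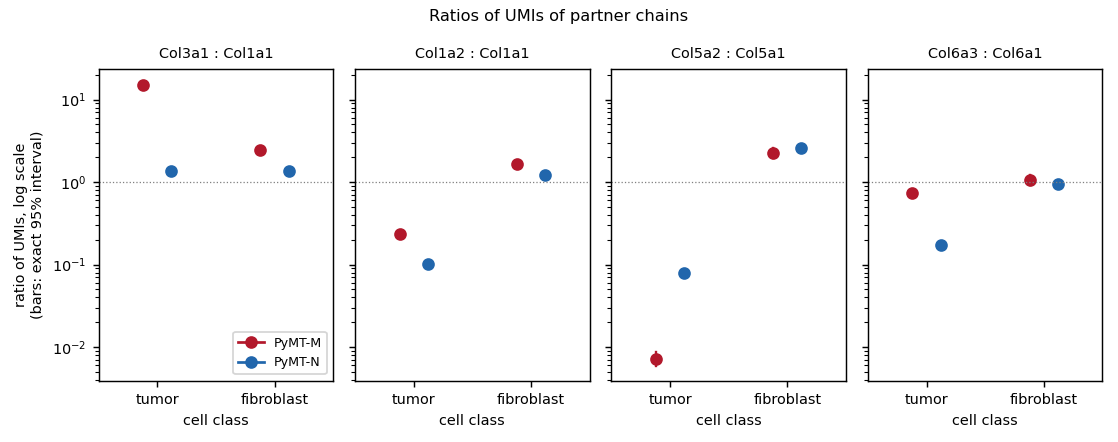
Points give the ratio of UMIs of 4 pairs of collagen chains on a log scale in tumor-class cells and fibroblasts of PyMT-M (red) and PyMT-N (blue), with exact 95% intervals, and the dotted line marks equal counts. Col3a1 and Col1a1 belong to different collagens and are not partner chains. Col5a2 lies far below Col5a1 in tumor-class cells (0.00711 and 0.0795) and above it in fibroblasts (2.27 and 2.59).

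The 44 other genes of collagen synthesis, crosslinking and reception were counted in the same way. In blood endothelial cells 30 were ranked, of which 1 was at least 2-fold higher in PyMT-M (3.33%, against 4.39% of all ranked genes) and 4 lower (13.3%, against 9.89%), with a median log2 ratio of 0.04. Pcolce, an enhancer of procollagen cleavage, was at 39.4 and 16.6 CPM, for a log2 ratio of 1.25 (0.90 to 1.59), followed by the prolyl hydroxylase genes P4ha2 (26.6 and 14.1 CPM) and P3h2 (32.4 and 19.1 CPM), both within 2-fold. The lowest were Lair1, an inhibitory collagen receptor of leukocytes (0.830 and 3.61 CPM), Mrc2, a receptor that takes up collagen (0.830 and 2.86 CPM), and the lysyl oxidase-like gene Loxl3 (1.66 and 4.55 CPM), each with 2 to 4 UMIs in PyMT-M. The leukocyte markers summed to 82.6 CPM in PyMT-M against 449 CPM in PyMT-N blood endothelial cells, and their part in the Lair1 value was not tested.

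In tumor-class cells 40 of the 44 were ranked, 7 at least 2-fold higher in PyMT-M (17.5%, against 21% of all ranked genes) and 13 lower (32.5%, against 25.6%), with a median log2 ratio of -0.41. The highest were Loxl2, a crosslinking enzyme gene, at 85.3 and 1.38 CPM with a log2 ratio of 5.95 (5.67 to 6.25), Fkbp10, a collagen chaperone gene, at 57.1 and 5.89 CPM, and Loxl4, another crosslinking enzyme gene, at 4.46 and 0.609 CPM. The lowest were Mrc2 at 0.332 and 242 CPM with a log2 ratio of -9.51 (-10.00 to -9.07), Itga2, a subunit of a collagen-binding integrin, at 0.0663 and 34.2 CPM, and Fkbp14, a further chaperone gene, at 0.232 and 24.3 CPM. The related enzymes and chaperones thus lay on opposite sides, Loxl2 and Fkbp10 with PyMT-M, Loxl3 and Fkbp14 with PyMT-N. In fibroblasts 31 were ranked, 4 higher (12.9%, against 5.35%) and 1 lower (3.23%, against 13.5%). In lymphatic cells 23 were ranked, 5 higher (21.7%, against 12.1%), 3 lower (13.0%, against 11%) and 4 without a ratio.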

How the data were processed

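Endothelial-enriched cells of PyMT-M and PyMT-N mammary tumors were analysed as 2 libraries, 1 per model. UMI counts per gene and barcode were deposited by the authors, as whole numbers without normalization, from Cell Ranger 8.0.0 on build mm39 according to the submitters' processing notes, with the annotation not given in the sources used here. Barcodes with at least 200 genes, a gene number within 2-fold of the library median and at most 10% mitochondrial UMIs were kept, following the study's methods. Doublets were not removed. Leaving out the 6% of barcodes with the highest Scrublet scores (scanpy 1.11.5) was an alternative. Leukocytes had at least 5 UMIs of Ptprc, Tyrobp, Laptm5, Cd52 and Coro1a, at most 1 UMI each of the tumor and blood endothelial rule genes and at most 4 of Dcn and Lum. Reads shared by overlapping genes could be split in counting.

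Counts were summed per class and library and scaled to CPM, so cells were not treated as replicates and no p-value was computed. A gene was ranked in a class where both libraries together held 50 UMIs or more, the fold was 2, and a gene with no UMI in a library was set against a floor of 3 UMIs over the library. Named in each class are the 8 members with the most UMIs and every ranked member past the fold whose interval excludes equal levels, the members under 50 UMIs as a list, and the 3 highest and 3 lowest of the 44 pathway genes. The members, marker lists and pathway list were chosen with earlier results of these data known. Counts with 4-fold changes were simulated as independent Poisson values, the model that the intervals assume. They check the code and not the spread between cells. In them the true value lay in the interval for 95.8% of 11842 genes in blood endothelial, 98.1% of 6616 in lymphatic, 95.3% of 14998 in tumor-class and 96.0% of 5616 in fibroblast sums. Unchanged genes passed 2-fold in 0.988%, 16.9%, 0.0946% and 1.92%. The alternatives were 13 planned and 2 added after seeing the data. Promoter windows were taken from RefSeq on GRCm38.p6, and no coordinates were carried between builds. Software was matplotlib 3.10.9, scipy 1.17.1, numpy 2.4.6, pandas 2.3.3 and Python 3.11.15.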

Additional observations from a re-analysis of the deposited data

Results flagged for a closer look

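Within blood endothelial cells 3 members differed between vessel states in opposite directions in the 2 libraries, with the counting interval of each library clear of equal levels. The difference between the libraries was not tested, since each model has 1 library. States were cut at the same UMI numbers although PyMT-M cells were shallower, so they need not hold the same kind of cells in both libraries. Col27a1 in capillary cells, against other blood endothelial cells, had a log2 difference of -2.44 (-3.77 to -1.16, from 10 and 14 UMIs) in PyMT-M and 1.57 (1.00 to 2.20) in PyMT-N. Col18a1 in capillary cells had -0.32 (-0.50 to -0.14) in PyMT-M and 0.24 (0.18 to 0.30) in PyMT-N. Col8a1 in tip cells had -1.27 (-2.58 to -0.08, from 9 and 21 UMIs) in PyMT-M and 0.78 (0.31 to 1.24) in PyMT-N. Cells of another class and cells with 5 or more Rgs5 UMIs were left out for these values. Capillary cells were deeper than the others in both libraries, with medians of 7165 and 6453 UMIs in PyMT-M and 13550 and 10801 UMIs in PyMT-N, and the part of depth in these values was not tested.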

How the results depend on the processing

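No paired analysis was possible because each model has 1 library, and for the same reason no replicate could be left out. Of 108 counts of members under an alternative 87 stayed within 1.5 times the value reported and 21 moved. Single-gene ratios were followed only for the members picked in each class by the naming rule above. Of 830 such ratios 671 stayed within the counting interval of the value reported and 157 moved out of it. The other 2 were reversed, which is said only of ratios past 2-fold whose interval lay off 0. Of these ratios 15, of 9 genes and classes, took the other sign, and 6 of the 9 had been reported between -0.32 and 0.41. Other ratios also took the other sign and are not in this count, among them Col15a1, Col18a1 and Col5a3 in fibroblasts and Col7a1 in blood endothelial cells. The same holds for Col1a1 and Col1a2 in blood endothelial cells without cells with 5 or more Rgs5 UMIs. They came to -1.90 (-7.25 to 0.70) and -0.53 (-3.67 to 1.50) and were no longer ranked. The share over all ranked genes is not given for any alternative. In blood endothelial cells the 8 higher of 17 ranked members became 3 of 11 with cells thinned to 5000 UMIs. With a minimum of 200 UMIs they became 1 of 8. Without cells with 5 or more Rgs5 UMIs (added after seeing the data) they became 3 of 14. The 3 lower members became 1 of 15, Col28a1, with cells of 1 class only. In lymphatic cells the 4 higher of 8 ranked members became 0 of 4 without the highest 6% of Scrublet scores. With cells of 1 class only they became 2 of 6, and with no UMI of other-class markers 1 of 6. They became 0 of 3 thinned, 0 of 2 with a minimum of 200 UMIs and 9 of 33 with a minimum of 1 UMI. The 1 lower member became 2 of 8 without the limit on gene number, 2 of 8 with every deposited barcode and 2 of 3 thinned. The median log2 ratio of lymphatic members, 1.06, was reversed to -0.99 without those Scrublet scores, -0.10 with cells of 1 class only, -0.57 with no UMI of other-class markers, -1.92 thinned and -2.61 with a minimum of 200 UMIs. Col3a1 (-0.10) and Col6a1 (-0.57) were reversed in lymphatic cells with no UMI of other-class markers. In tumor-class cells the 7 higher of 32 ranked members became 4 of 24 thinned and 4 of 25 with a minimum of 200 UMIs. In fibroblasts the 1 higher of 22 ranked members became 2 of 22 with the mean over cells and with the median log2 ratio set to 0. It also became 2 of 22 with the total without mitochondrial, ribosomal-protein and hemoglobin genes, and 2 of 37 with a minimum of 1 UMI. The 5 lower members became 2 of 16 thinned and 2 of 16 with a minimum of 200 UMIs. Where no construction is named, the cause was not tested. Depth limits lymphatic cells most, with 52329 UMIs in PyMT-M.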

Other observations

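Of the 31 ranked genes of collagen synthesis, crosslinking and reception in fibroblasts, 26 lay within 2-fold. The 3 highest and 3 lowest ratios are given here. Lox, the lysyl oxidase gene, was at 882 CPM in PyMT-M against 320.2 CPM in PyMT-N, for a log2 ratio of 1.46 (1.24 to 1.68). P4ha2, a prolyl hydroxylase gene, was at 250.2 and 90.5 CPM, a log2 ratio of 1.47 (1.05 to 1.88), and Pcolce2, an enhancer of procollagen cleavage, at 93.0 and 18.4 CPM, a log2 ratio of 2.34 (1.54 to 3.14). The lowest were the collagen-binding integrin gene Itga1, at 73.8 and 171 CPM with a log2 ratio of -1.21, the collagen uptake receptor gene Mrc2, at 173 and 289 CPM, and the integrin gene Itgb1, at 414 and 653 CPM. These are values of 34 and 72 cells of 1 library per model, and the PyMT-N class was mixed. Their values with at least 3 UMIs each of Dcn and Lum are not given. In lymphatic cells Sparc, a collagen-binding glycoprotein gene, was at 287 and 843 CPM, a log2 ratio of -1.56 (-2.40 to -0.83), on 15 UMIs in PyMT-M.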
